A study of Danio rerio with 13 samples.

Results

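The cytosolic ribosome of *Danio rerio* is built from a large and a small subunit, and the genes described here encode its protein parts. Members were taken by name. A gene was included when its only symbol in the array annotation began with rpl or rps (with or without a p) followed by a digit, S6 kinase genes (rps6k) excepted. This gave 73 of the 8793 genes that the annotation names by 1 symbol. By their symbols alone, 45 were assigned to the large subunit and 27 to the small subunit, relatives such as *rpl7l1* included. The remaining gene, *rps19bp1*, encodes a protein that binds Rps19 in human cells and is no part of the ribosome, but its name meets the rule. Each member was taken by its name and not by a measured value, though the list itself was chosen with earlier results of these data known.

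Ribosomal proteins are needed in near-equal numbers, because each mature subunit holds 1 copy of most of them, and dividing cells spend a large share of their transcription on these genes. In mammals MYC raises transcription of ribosomal RNA, of ribosomal protein genes and of the nucleolar factors that assemble the subunits. Inherited loss of 1 copy of several ribosomal protein genes causes Diamond-Blackfan anaemia in humans, and Rpl22 is required for the development of αβ T cells in mice.

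RNA came from GFP+ acute lymphoblastic leukemia (ALL) cells, FACS-purified from the bodies of 13 individual adult fish, and 1 Affymetrix zebrafish array was hybridised for each fish. The 3 *hlk* fish carried *hlk;lck:eGFP*, a line prone to T cell leukemia (T-ALL) with no *MYC* transgene, and the other 10 were double transgenic *rag2:hMYC;lck:eGFP*, in which a *rag2* promoter, active in immature lymphocytes, drives human *MYC*. All 13 fish had GFP under the T cell *lck* promoter, so the sort kept cells in which that promoter was active, and dim and bright GFP+ cells were collected together. The labels divide the hMYC fish into *hMYC-1* (n = 4) and *hMYC-2* (n = 6), a division the study made by clustering these same arrays, so differences between hMYC-1 and hMYC-2 describe that division. Lineage, transgene and line all differ between hlk and hMYC fish and cannot be told apart here, and in sorted bulk RNA a different mixture of cells cannot be told apart from a different level in each cell.

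Readings are log2 RMA values, so a difference of 1 is a 2-fold change. The median reading of an array lay between 4.98 and 5.10, and control probe sets with no zebrafish target (tag controls) read up to 5.68, which is taken as background. Of the B lineage markers, 7 of 15 were measured under their own symbol, and all 7 rose in both hMYC groups against hlk. Their summed level was 7.16 to 7.44 in hlk, 12.38 to 12.92 in hMYC-1 and 12.58 to 12.84 in hMYC-2. Much of the sum in the hMYC groups came from *igl1c1*, which had the highest mean of the 7 there (12.09 in hMYC-1 and 12.01 in hMYC-2). Of the T lineage markers, 8 of 17 were measured, with summed levels of 12.68 to 13.07, 10.71 to 11.67 and 9.89 to 10.78, of which 3 fell and 1 rose in hMYC-1 and 5 fell in hMYC-2 (*gata3*, *runx3* and *trac* in both). Not all 8 are particular to T cells. The paper lists *ptprc* as common to B and T cells and found *rag2* at similar levels in both leukemia types. *ptprc*, 1 of the 5 that fell, averaged 10.43 in hlk, 9.91 in hMYC-1 and 9.46 in hMYC-2. It had the highest mean of the 8 in both hMYC groups, so their summed levels overstate T lineage signal. Most measured markers of other cells read within background on all 13 arrays: 6 of 8 for erythroid cells, 3 of 4 for neutrophils, 3 of 3 for macrophages, 2 of 2 for thrombocytes, 10 of 13 for muscle and 6 of 7 for hepatocytes. Of the markers of these cells above background, *tspo* of the erythroid list read 0.66 and 0.79 higher in hMYC-1 and hMYC-2 than in hlk (limma adjusted p = 0.0215 and 0.00366), and *mylz3* of the muscle list 0.51 and 0.78 lower (differences −0.51 and −0.78, adjusted p = 0.0296 and 0.00118). Their part in the differences below was not tested. For exocrine pancreas 2 of 7 markers read within background, with summed levels of 7.60 to 8.68 in hlk, 7.65 to 7.90 in hMYC-1 and 7.51 to 7.75 in hMYC-2. The array of hlk replicate 1 stood apart in a control used to judge RNA integrity, with a GAPDH 3′ minus 5′ difference of 4.69 against 1.09 to 2.49 on the other 12. It also had the highest reading of *gapdh* itself (6.66, the others 4.72 to 5.69). Its mean over the exocrine pancreas markers was highest too (5.62, the others 4.52 to 4.95). Whether RNA integrity sets this array apart was not tested. Results that rest on this array are given with and without it.

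Ribosomal protein genes were among the brightest features on every array. Of the 73 genes, 68 had a mean reading above 13, a level that only 100 to 107 of 15502 probe sets passed on any array. The highest reading of an array was 14.40 to 14.67, and 59 to 66 of the 73 genes lay within 1 log2 unit of it. The median reading over the 73 genes was 13.89 to 13.96 in hlk, 13.98 to 14.03 in hMYC-1 and 13.95 to 13.99 in hMYC-2. The 5 genes below 13 were *rpl22l1*, *rps27.2*, *rpl7l1*, *rps27l* and *rps19bp1*, that is 4 paralogs of an abundant gene and the Rps19-binding protein. None of the 73 read within background by the probe set used.

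The readings hardly varied between fish. The median standard deviation of a gene within a group was 0.076 in hlk, 0.043 in hMYC-1 and 0.033 in hMYC-2, against 0.210, 0.157 and 0.152 over all probe sets. The 32 other probe sets with a mean above 13 were as even, at 0.074, 0.052 and 0.041. They are not free of ribosomal genes. Among them are the ribosome components *rpsa*, *faua* and *rack1*, which the naming rule leaves out, and the elongation factor gene *eef1a1l1*. Across all 13 fish, 67 of the 73 genes had a range of less than 0.5 log2 units, and *rplp2* had a range of 0.5. *rps14*, a small subunit gene deleted in a human myelodysplastic syndrome, read 14.17 to 14.20 in hlk, 14.17 to 14.25 in hMYC-1 and 14.19 to 14.23 in hMYC-2. *rplp0*, the base of the stalk that recruits elongation factors, read 14.10 to 14.27, 14.12 to 14.25 and 14.13 to 14.25. *rpl11*, which forms a particle with Rpl5 and 5S RNA, read 13.89 to 14.00, 13.91 to 14.03 and 13.87 to 14.03. In each of these 3 genes the groups overlapped.

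**Figure D1:**
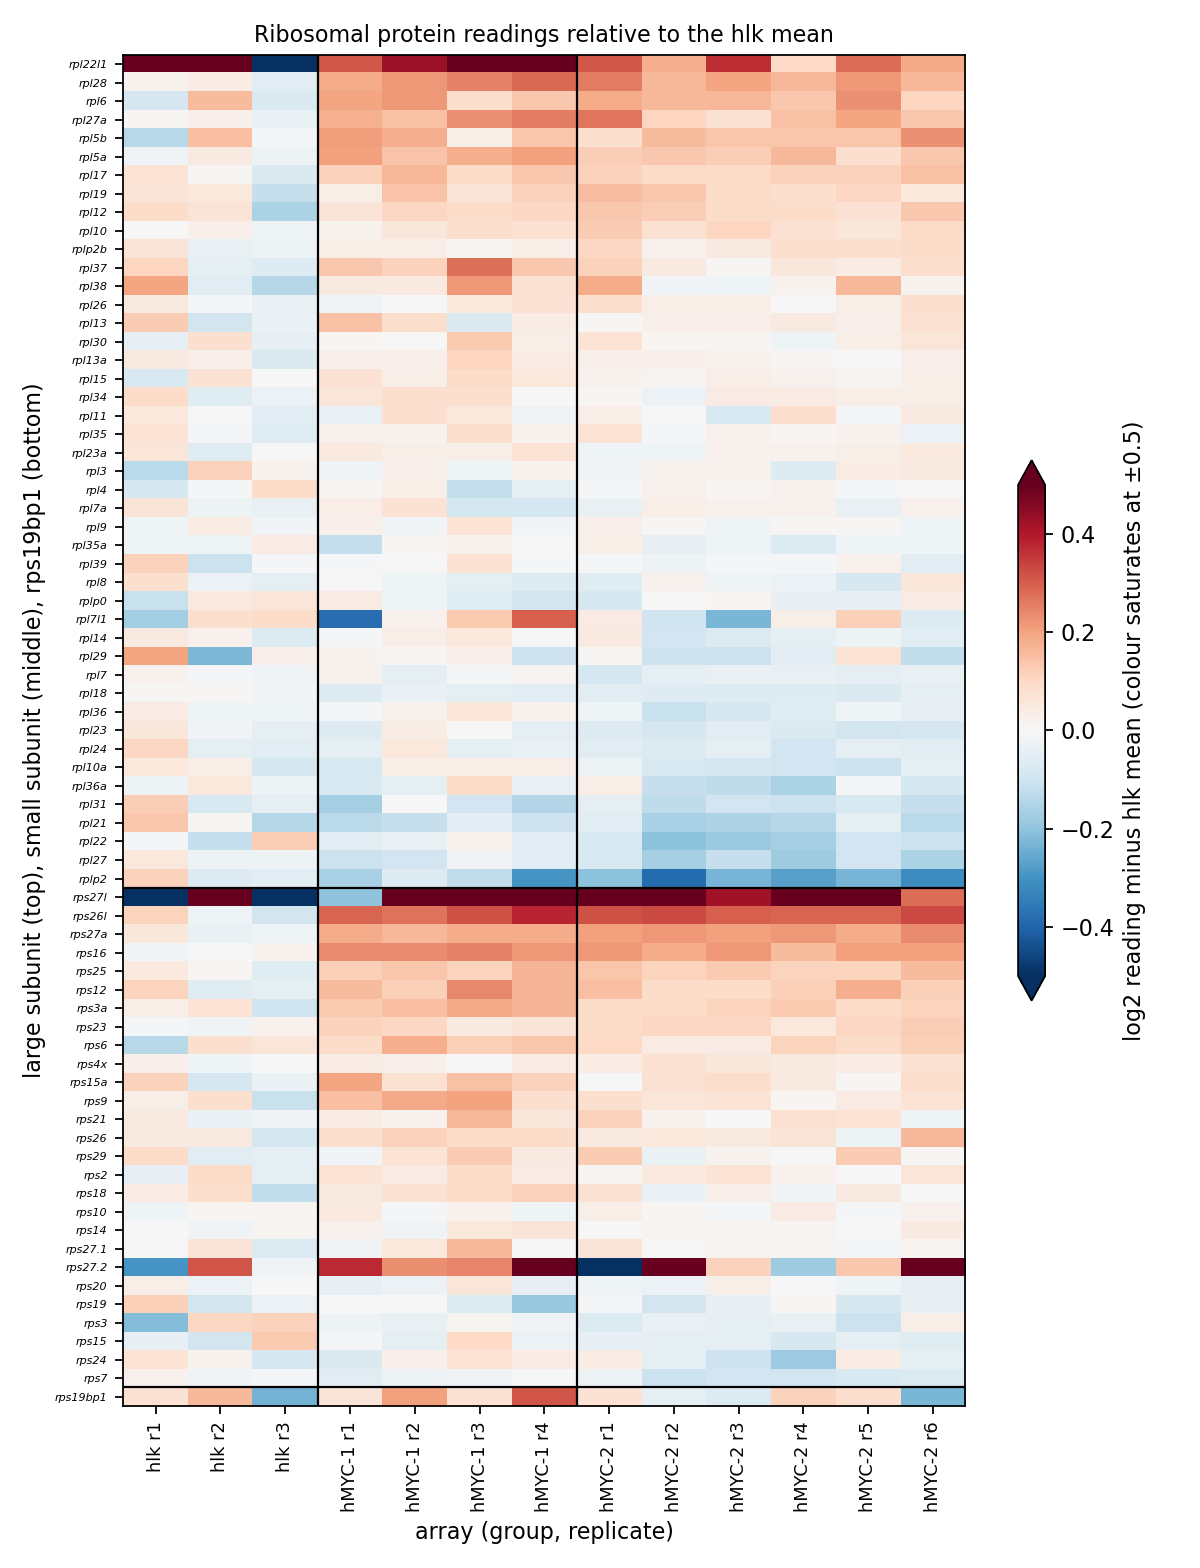
Reading of each of the 73 ribosomal protein genes (rows, by subunit) on each of the 13 arrays (columns, by group and replicate) as log2 difference from the hlk mean of that gene, with colour saturating at ±0.5. Most rows are pale throughout, rps26l, rps16, rps27a and rpl28 are red on all 10 hMYC arrays, and the strong contrasts within a group fall on rpl22l1, rps27l and rps27.2. Under a shift of every array to equal actb1 and eef1a1l1, added after the data were seen, no gene stays past the threshold above hlk. The reading of actb1 varied more within groups than that of most members.

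The first comparison asks how the ribosomal protein genes of the 4 hMYC-1 leukemias differ from those of hlk T-ALL. Of the 73 genes, 3 rose and 0 fell (limma, Benjamini-Hochberg adjusted p under 0.05 over 15502 probe sets), which is 4.11% of them. Over all probe sets 18.8% passed the same test, 9.13% as higher and 9.63% as lower. The genes that rose were *rps26l*, *rps16* and *rpl28*, by 1.18- to 1.24-fold. The median difference over the 73 genes was 0.04, beside −0.03 over all probe sets, with 53 genes above zero and 20 below. At an unadjusted limma p under 0.05, 11 were higher and 0 lower, beside 30.3% of all probe sets in either direction. The range ran from −0.16 to 0.50, and 69 of 73 differed by less than 0.25. Leaving out hlk replicate 1 or hlk replicate 2 gave 5 higher and 0 lower, beside 9.62% or 8.04% of all probe sets higher and 9.86% or 9.58% lower. Limma draws the SD of each gene toward a value shared by all probe sets. The median SD within groups was 0.19 over all probe sets and 0.06 over these genes, so the counts depend in part on that value. With a trended robust prior 8 rose and 0 fell, beside 8.77% and 9.37% of all probe sets.

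The second comparison puts the 6 hMYC-2 leukemias against the same 3 hlk fish. Here 4 genes rose, *rps26l*, *rps16*, *rps27a* and *rpl28*, and *rplp2* fell, together 6.85% of the 73 beside 24.7% of all probe sets (11.0% higher, 13.7% lower). The median difference was 0.02, beside −0.06 over all probe sets, and 47 genes were above zero and 26 below. At an unadjusted limma p under 0.05, 8 were higher and 2 lower, beside 36.6% of all probe sets. An exact two-sided permutation test of each gene by itself gave 18 of the 73 an unadjusted p under 0.05, 12 higher and 6 lower. That is 24.7% of members beside 29.7% of all probe sets, and 0 passed after adjustment. The replicate number was also fitted as a block, since same-numbered arrays met the rule used for pairing in this comparison. With it 0 of the 73 genes passed the limma test in either direction, beside 7.54% of all probe sets higher and 7.91% lower. The block was fitted over all arrays, including those of hMYC-1, whose numbers did not pair. Replicates 5 and 6 occur only in hMYC-2, so under the block they add nothing to the comparison. The fit thus has less to estimate the spread from, and what the numbers stand for is not known. The differences themselves hardly moved under the block (rps26l 0.30, limma adjusted p = 0.0599). Without hlk replicate 1, 3 passed as higher and 0 as lower, beside 10.7% and 12.4% of all probe sets. Without hlk replicate 3 the number lower was 2, beside 13.2% of all probe sets. Both comparisons use the same 3 hlk arrays, so a gene that passed in both is not counted as evidence from 2 sources.

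The third comparison sets hMYC-2 against hMYC-1. Of the 73 genes, 0 passed the limma test, beside 0.535% of all probe sets (0.419% higher, 0.116% lower), and 0 had an unadjusted limma p under 0.05, beside 11.3% of all probe sets. No adjusted limma p or local false discovery rate passed under any of the 25 alternatives. An exact two-sided permutation test of each gene by itself, which takes no spread from other probe sets, gave 16 of the 73 an unadjusted p under 0.05. Of these 15 were lower and 1 higher in hMYC-2, beside 8.49% of all probe sets lower and 4.30% higher. *rpl22* and *rpl36* had the smallest p the test allows (0.00952), and 0 genes passed after adjustment over 15502 probe sets, where the lowest adjusted p was 0.259. The median difference was −0.03, beside −0.04 over all probe sets, and −0.006 under further quantile normalization. The largest differences were −0.41 for *rps27.2* and 0.28 for *rps27l*.

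The intervals of these differences in reading were narrow. In hMYC-1 against hlk the 95% interval of the difference lay wholly within ±0.25 for 48 of 73 genes (65.8%) and within ±0.5 for 70 (95.9%). The shares were 8.35% and 47.8% of all probe sets, but 56.2% and 84.4% of the 32 other probe sets with a mean above 13. In hMYC-2 against hlk the counts were 55 and 70, beside 10% and 48.2% of all probe sets and 59.4% and 87.5% of those 32. In hMYC-2 against hMYC-1 they were 67 and 70, beside 18.7% and 68.5%, and 81.2% and 93.8%. Narrow intervals were thus shared by other bright probe sets, though those 32 include some ribosome components. The 3 genes whose intervals reached beyond ±0.5 in each comparison were *rpl22l1*, *rps27.2* and *rps27l*. These intervals bound the readings, most of which lie near the top of the scale, and not the amounts of RNA.

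**Figure D2:**
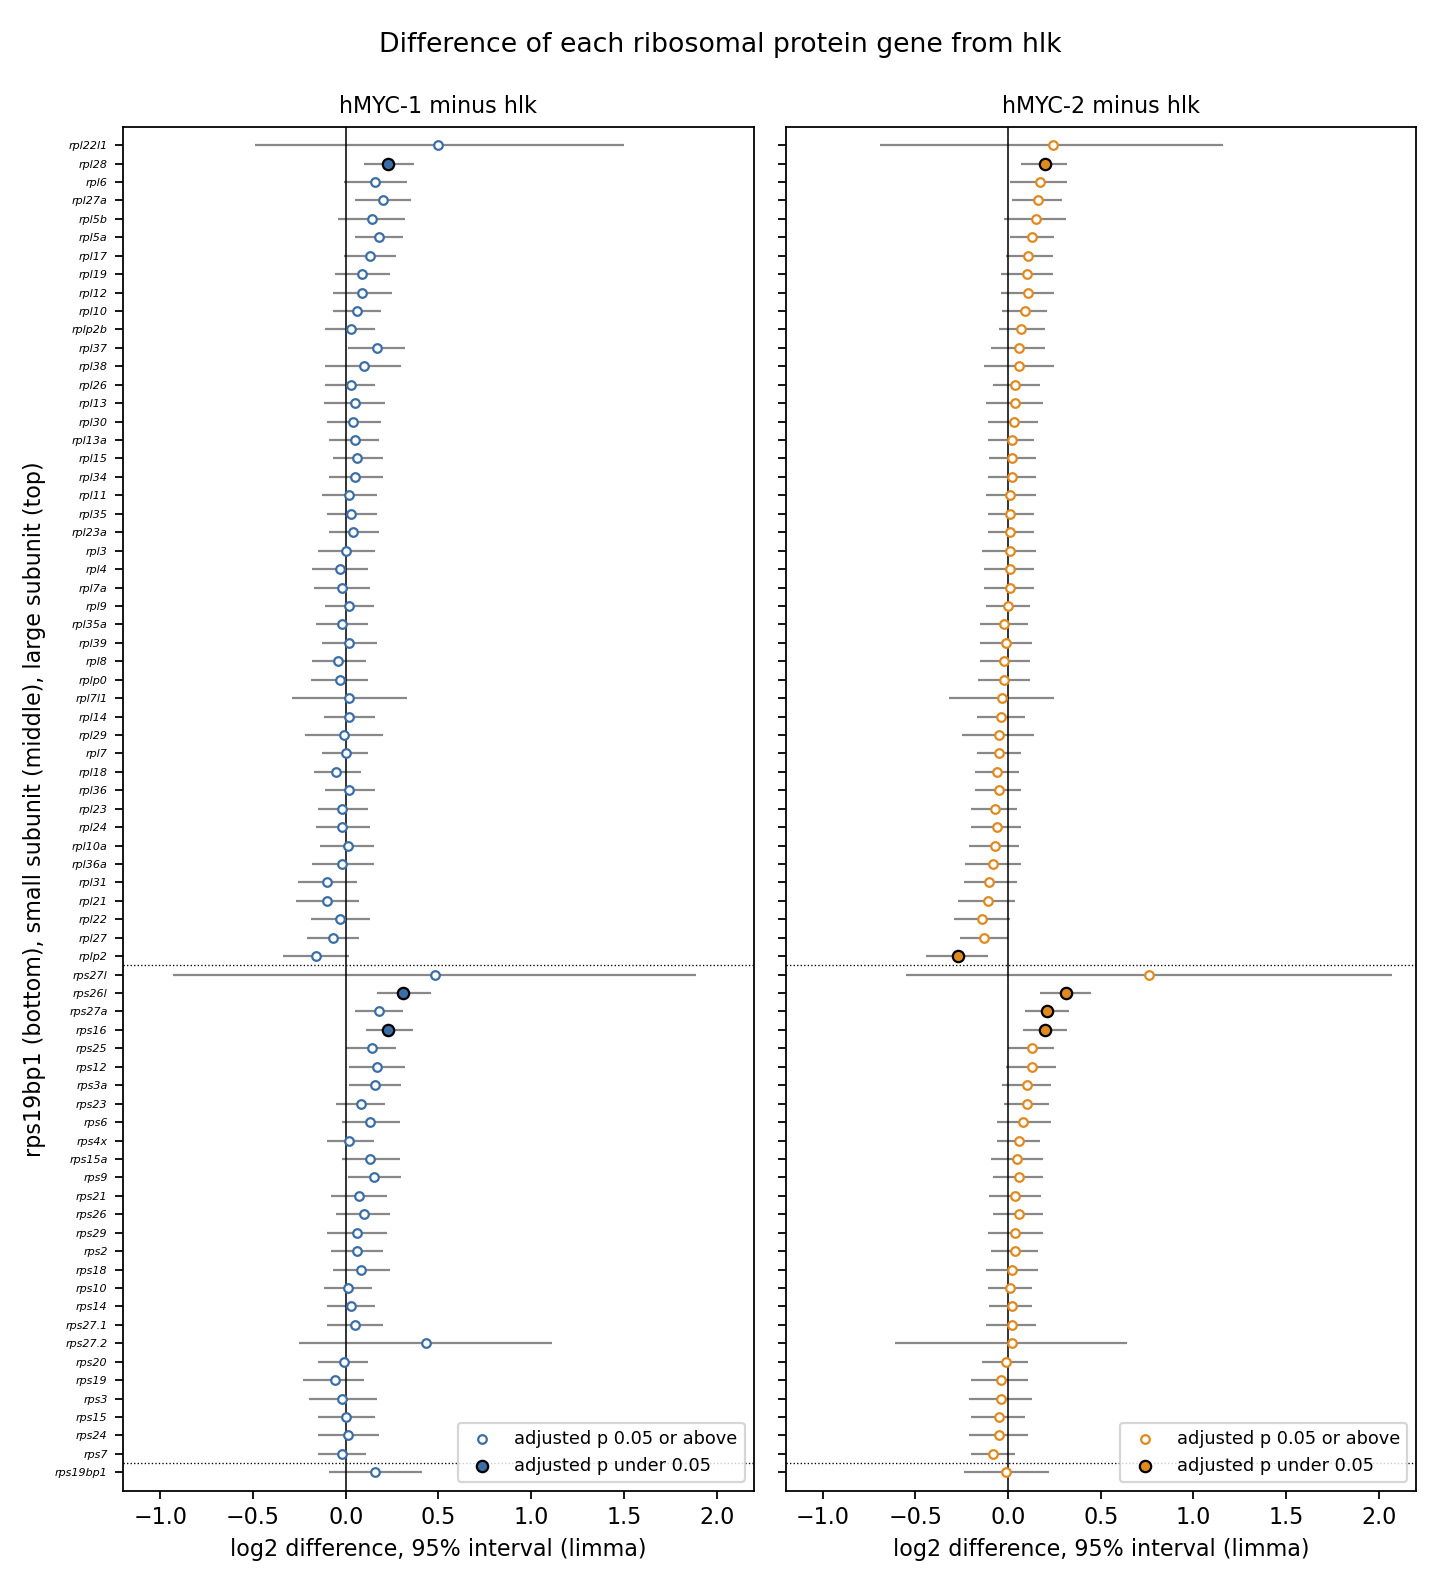
Log2 difference of each of the 73 genes from hlk with its 95% interval from the limma fit, in hMYC-1 (left) and hMYC-2 (right), ordered by subunit and by the hMYC-2 difference. Filled points passed the adjusted test, 3 on the left (rps26l, rps16, rpl28) and 5 on the right (rps26l, rps27a, rps16, rpl28 above zero, rplp2 below), of which 0 above hlk passed after a shift to equal actb1 and eef1a1l1, and the 3 widest intervals are those of rps27l, rpl22l1 and rps27.2.

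Small differences were shared by most bright probe sets, and by the dimmest. Among probe sets that were not members, the median absolute difference of hMYC-1 from hlk was 0.1 at readings up to 4. It was 0.37 at 6 to 8, 0.39 at 10 to 12 and 0.07 above 13. The 32 probe sets above 13 ran from −1.69 to 0.39, with 27 under 0.25 in size, and 15.6% were past the threshold. The 68 members above 13 had a median absolute difference of 0.05, and 4.41% of them were past it. For hMYC-2 the corresponding values above 13 were 0.07 for the other probe sets, with 9.38% passing, and 0.06 for members, with 7.35% passing. How far readings near the top of the scale understate differences was not tested. The 5 members below 13 were uneven, with a median absolute difference of 0.43 in hMYC-1 but 0.03 in hMYC-2, and 0 of them passed the test in either.

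**Figure D3:**
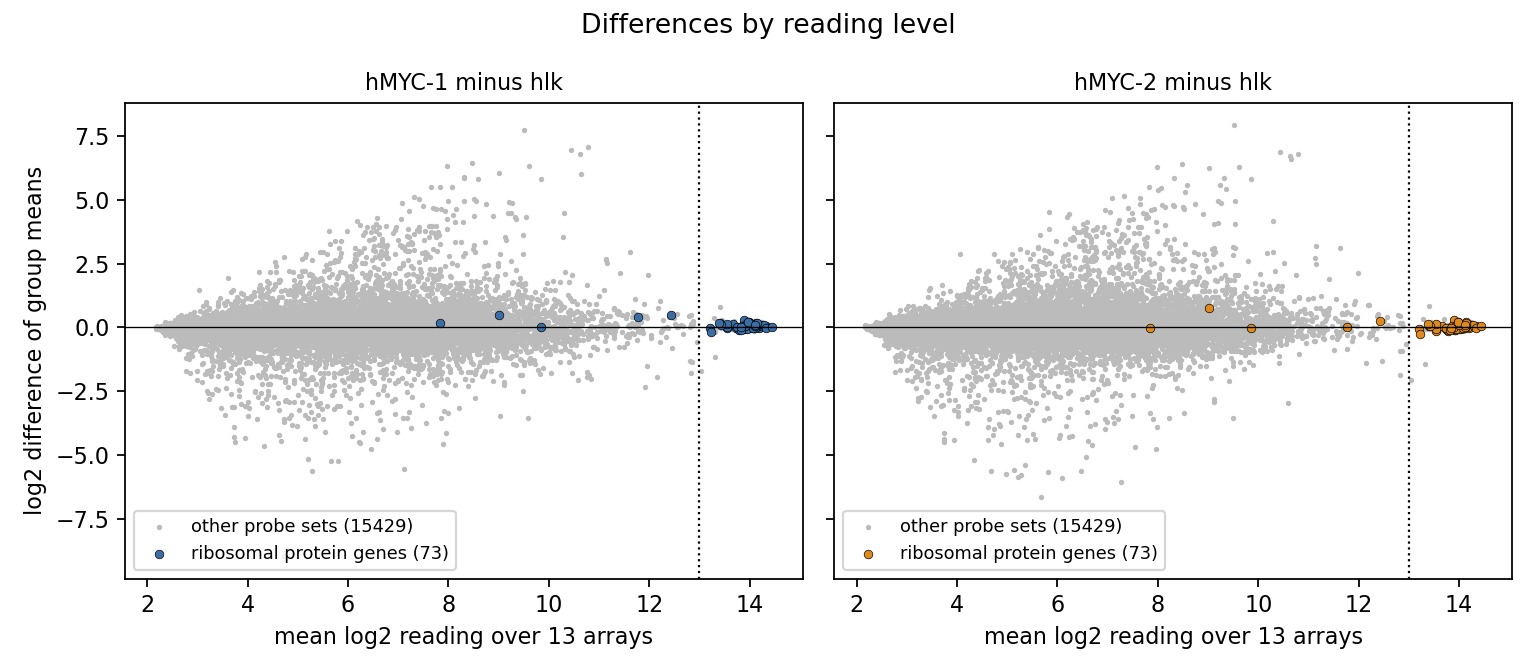
Log2 difference of hMYC-1 (left) and hMYC-2 (right) from hlk against the mean log2 reading over 13 arrays, for the 73 ribosomal protein genes (coloured) and the 15429 other probe sets (grey). The dotted line marks a reading of 13, above which 68 of the 73 genes lie. There members ran from −0.16 to 0.31 (hMYC-1) and from −0.27 to 0.31 (hMYC-2). Of the 32 other probe sets above it, 27 and 28 differed by less than 0.25, and the lowest stood at −1.69 and −2.05.

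The direction of the whole set depended on scaling. As deposited, the median member stood 0.042 above hlk in hMYC-1 and 0.017 above it in hMYC-2. Setting the mean of *actb1*, *eef1a1l1* and *gapdh* equal on all arrays moved these medians to 0.253 and 0.151, and 73 and 71 of the 73 genes stood above hlk. That shift rests on *gapdh*, whose only probe set with 1 symbol read 6.66 in hlk replicate 1 and 4.72 to 5.69 on the other 12 arrays, near background. With *actb1* and *eef1a1l1* alone, a setting added after the data were seen, the medians turned to −0.023 and −0.127, and 27 and 9 genes stood above hlk. *actb1* was itself uneven, with an SD of 0.34 in hlk, 0.25 in hMYC-1 and 0.16 in hMYC-2. Part of that spread enters every gene under this shift. Over all probe sets the medians were 0.19 and 0.07 under the first shift and −0.09 and −0.21 under the second, so the median member stood 0.07 above the median probe set in hMYC-1 and 0.08 above it in hMYC-2 in all 3 scalings, which move every probe set of an array alike. The counts of genes passing the test under the second shift were 0 higher in both comparisons (background 6.19% and 7.15%) and 0 and 1 lower (8.77% and 17.6%). Under it *rps26l* still stood above hlk, by 0.25 in hMYC-1 and 0.17 in hMYC-2. *rps16* and *rpl28* each stood 0.17 and 0.05 above hlk, and *rps27a* 0.07 above it in hMYC-2.

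Among the genes that passed, *rps26l* had the largest difference. It encodes a copy of Rps26 (eS26), which lies where mRNA leaves the small subunit. *rps26l* read 13.76, 13.63 and 13.56 in hlk, 13.94, 13.92, 13.97 and 14.03 in hMYC-1, and 13.94 to 13.98 in hMYC-2 (median 13.96). All 10 hMYC arrays lay above all 3 hlk arrays. The difference was 0.31 ± 0.07 (SE) in hMYC-1 (limma adjusted p = 0.00568) and 0.31 ± 0.06 in hMYC-2 (adjusted p = 0.00311), 1.24-fold in each. Over 25 alternatives it stayed above hlk throughout, by 0.25 to 0.53 and by 0.17 to 0.44. Its adjusted p or local fdr was under 0.05 in 21 and 22 of them (0.00119 to 0.485 and 0.000587 to 0.591). These counts leave aside the size that the 2-fold minimum asks for, which a 1.24-fold difference does not meet. They also take in settings that could not move the difference. Another membership and the 2-fold minimum leave the difference and adjusted p as they were. The mean of probe sets leaves the difference as it was, since *rps26l* has 1 probe set.

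*rps26*, the other copy, had smaller differences. It read 13.42, 13.42 and 13.29 in hlk, 13.46, 13.49, 13.47 and 13.47 in hMYC-1, and 13.35 to 13.54 in hMYC-2. The hMYC-1 arrays lay just above hlk and the hMYC-2 arrays overlapped it, with differences of 0.10 and 0.06 that did not pass (adjusted p = 0.389 and 0.556). Under further quantile normalization the hMYC-2 difference was 0.23 and passed (adjusted p = 0.0381), and over 25 alternatives it ran from −0.09 to 0.23 (adjusted p or local fdr 0.0381 to 0.998). Within each fish, the reading of *rps26l* minus that of *rps26* was 0.21 to 0.34 in hlk, 0.43 to 0.56 in hMYC-1 and 0.44 to 0.59 in hMYC-2. The size of this difference depends on the probes and only its change between fish is read, and no shift of a whole array affects it. Exact two-sided permutation tests gave p = 0.0571 for hMYC-1 and p = 0.0238 for hMYC-2 against hlk, the smallest values 4 against 3 and 6 against 3 fish allow, and 0.24 in each after adjustment over the 21 tests made on 7 paralog pairs. The pairs were chosen after values were seen, which the adjustment does not correct for.

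*rps16* encodes a small subunit protein (uS9) whose tail contacts the tRNA in the P site. It read 13.79, 13.80 and 13.82 in hlk, 14.04, 14.04, 14.05 and 14.02 in hMYC-1, and 13.96 to 14.02 in hMYC-2. The groups did not overlap, and the gap of 0.14 between the highest hlk and the lowest hMYC array was wider than the spread within any group. The difference was 0.23 ± 0.06 in hMYC-1 (limma adjusted p = 0.0136) and 0.20 ± 0.05 in hMYC-2 (adjusted p = 0.0177). Under the replicate block the hMYC-2 adjusted p was 0.132, within a range of 0.00276 to 0.933 over 25 alternatives, in all of which it stayed above hlk.

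*rpl28* encodes a large subunit protein that budding yeast lacks. It read 13.82, 13.84 and 13.75 in hlk, 13.99, 14.02, 14.05 and 14.09 in hMYC-1, and 13.97 to 14.06 in hMYC-2, again without overlap. The difference was 0.23 ± 0.06 (limma adjusted p = 0.0212) in hMYC-1 and 0.20 ± 0.06 (adjusted p = 0.0287) in hMYC-2. The call ended without hlk replicate 3 (adjusted p = 0.0694 and 0.0911) and, in hMYC-1, without hMYC-1 replicate 4 (0.0606). In hMYC-2 it also ended without hlk replicate 1 (0.0520), hMYC-2 replicate 3 (0.0502) or hMYC-2 replicate 5 (0.0510), and over 25 alternatives adjusted p or local fdr ran from 0.00454 to 0.728 and from 0.00718 to 0.995.

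*rps27a* encodes ubiquitin fused to the small subunit protein eS31, and so feeds the ubiquitin pool as well as the ribosome. It read 14.03, 13.94 and 13.95 in hlk, 14.16, 14.14, 14.16 and 14.16 in hMYC-1, and 14.16 to 14.21 in hMYC-2. Both hMYC groups lay above hlk without overlap. It rose by 0.21 ± 0.06 in hMYC-2 (limma adjusted p = 0.0137), while the hMYC-1 difference of 0.18 ± 0.06 just missed the threshold (adjusted p = 0.0520) and passed without hlk replicate 1 (0.0440). The difference between the hMYC groups, 0.03, did not pass (adjusted p = 0.882).

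*rplp2*, an acidic protein of the ribosomal stalk, was the only member that fell. It read 13.52, 13.34 and 13.35 in hlk, 13.24, 13.34, 13.28 and 13.11 in hMYC-1, and 13.02 to 13.20 in hMYC-2 (median 13.15). All 6 hMYC-2 arrays lay below hlk, and hMYC-1 replicate 2 shared a reading with hlk replicate 2. The difference was −0.27 ± 0.08 in hMYC-2 (limma adjusted p = 0.0182) and −0.16 ± 0.08 in hMYC-1 (adjusted p = 0.207). Without hlk replicate 1, the highest array and the 1 with the 3′ to 5′ imbalance, the hMYC-2 difference was −0.21 and did not pass (adjusted p = 0.0815). It shrank to −0.10 under further quantile normalization (adjusted p = 0.533) and to −0.14 under the 3-gene shift (0.558), and widened to −0.42 under the 2-gene shift (0.0272). Over 25 alternatives it stayed below hlk in all, and its adjusted p or local fdr was under 0.05 in 19 (0.00941 to 0.884). This count leaves aside the size that the 2-fold minimum asks for, which was not met.

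*rplp2b*, the second copy of the same stalk protein, did not follow it. It read 14.11, 14.01 and 14.02 in hlk, 14.06 to 14.08 in hMYC-1 and 14.07 to 14.15 in hMYC-2, with overlap. Within each fish, *rplp2b* minus *rplp2* was 0.59 to 0.67 in hlk, 0.74 to 0.97 in hMYC-1 and 0.92 to 1.05 in hMYC-2. The exact permutation p was 0.0571 for hMYC-1 and 0.0238 for hMYC-2 against hlk, again the smallest possible, and 0.0381 for hMYC-2 against hMYC-1, with 0.24 for each after adjustment over 21 tests. None of the 21 paralog tests, on pairs chosen after values were seen, passed after adjustment.

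**Figure D4:**
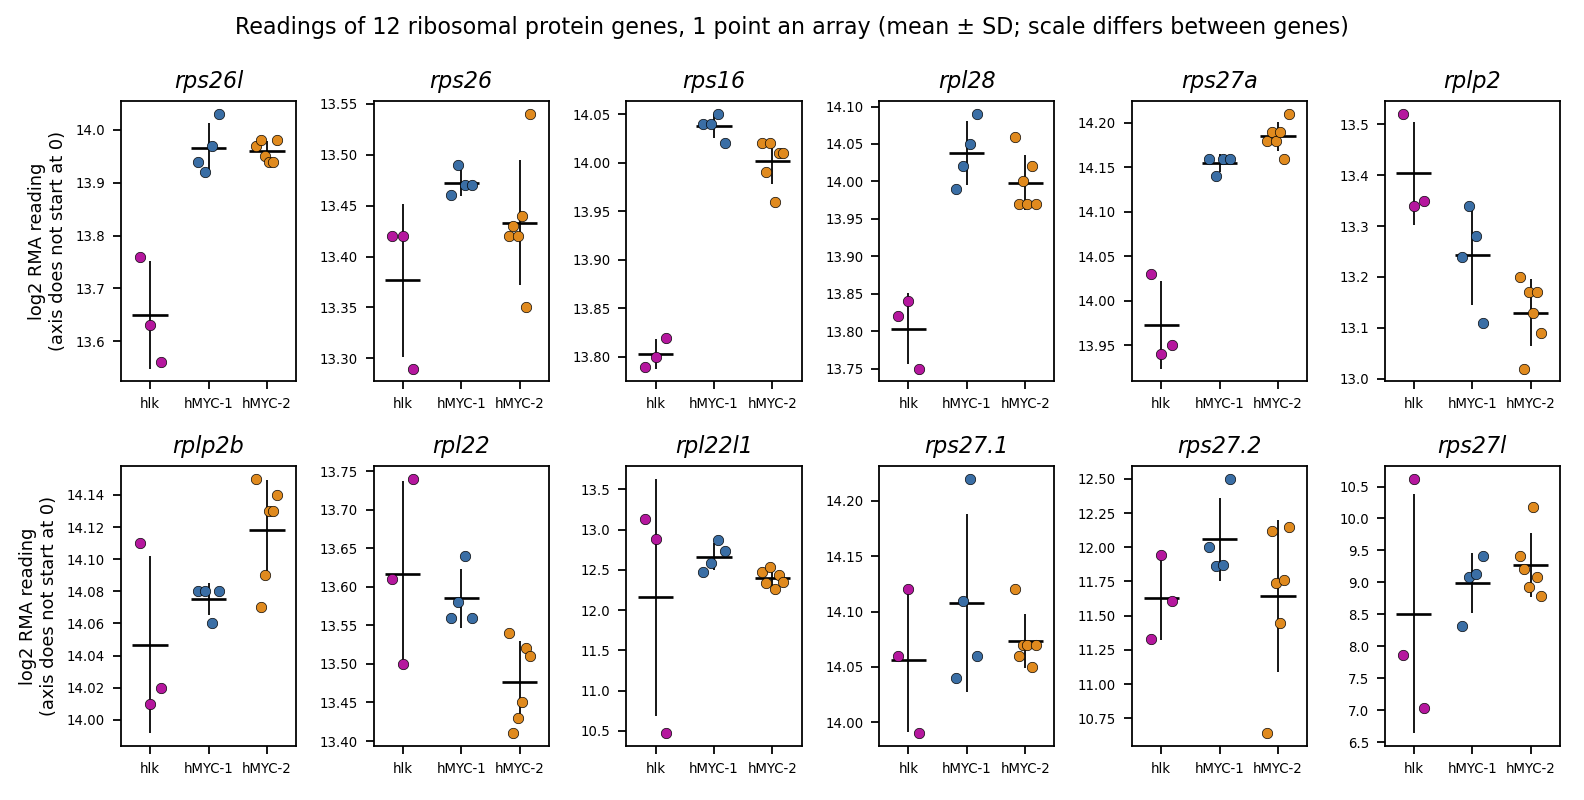
Log2 RMA readings of 12 ribosomal protein genes in hlk (3 fish), hMYC-1 (4) and hMYC-2 (6), with 1 point per array, a bar at the mean and a line of ±1 SD; the y axis differs between panels and does not start at 0. The hMYC points of rps26l, rps16, rpl28 and rps27a lie above all hlk points (differences that did not pass after a shift to equal actb1 and eef1a1l1), those of rplp2 run lower, and 1 hlk fish stands far from the other 2 in rpl22l1 (10.47) and in rps27l (10.62).

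Readings that did not overlap between groups were about as common as elsewhere on the array. In hMYC-1 they leaned one way, as did those of other bright probe sets. In hMYC-1 against hlk, 14 genes lay wholly above and 1, *rpl18*, wholly below, 20.5% of members beside 23.2% of all probe sets (11.3% above, 11.9% below). Of the 32 other probe sets with a mean above 13, which include *rpsa*, *faua* and *rack1*, 8 lay wholly above and 2 wholly below. These counts are on the deposited scaling, on which the direction of the set depended. Besides the genes already described, the 14 members above hlk included *rpl5a* and *rpl27a*. *rpl5a*, which carries 5S RNA into the large subunit and whose mammalian form binds Mdm2, read 13.25 to 13.32 in hlk and 13.42 to 13.48 in hMYC-1, a difference of 0.18 (adjusted p = 0.0531) that was 0.37 and passed under further quantile normalization (0.00365; 0.00365 to 0.966 over 25 alternatives). *rpl27a*, a large subunit gene named after its values were seen, read 13.81 to 13.87 and 13.99 to 14.10, a difference of 0.20 (adjusted p = 0.0620). In hMYC-2 against hlk, 12 lay above and 6 below, 24.7% beside 23.2% of all probe sets (10.3% above, 12.8% below). In hMYC-2 against hMYC-1, 0 lay above and 2 below, *rpl22* and *rpl36*, 2.74% of members beside 3.68% of all probe sets (1.38% above, 2.30% below).

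Small and large subunit genes were set against each other on each array. Each gene was taken relative to its own hlk mean, which holds the hlk arrays near zero, and the median over the 45 large subunit genes minus that over the 27 small subunit genes was formed. The value was 0.023, 0.007 and −0.003 in hlk, −0.033, −0.047, −0.057 and −0.043 in hMYC-1, and −0.047 to −0.020 in hMYC-2. All 10 hMYC arrays lay below all 3 hlk arrays, by a few hundredths of a log2 unit, and the hMYC groups overlapped. Other centrings were tried. With each hlk array centred on the other 2, the hlk values were 0.035, 0.010 and −0.005, still above all hMYC arrays. With genes centred on the hMYC mean they were 0.035 to 0.066 in hlk and −0.013 to 0.017 in hMYC fish. With no centring they were −0.06 to 0.03 and −0.11 to −0.01, and the groups overlapped. These centrings were added after the data were seen. A shift of whole arrays leaves this value as it is. In group medians, small subunit genes stood 0.08 above hlk in hMYC-1 and large subunit genes 0.02, a gap of −0.060 for large minus small, and in hMYC-2 the medians were 0.04 and 0.01, a gap of −0.035. Without hlk replicate 3 the hMYC-1 gap was −0.040, and over leaving out each array it ran from −0.070 to −0.040 in hMYC-1 and from −0.055 to −0.025 in hMYC-2. Between the hMYC groups the gap was −0.002. Of the small subunit genes, 2 and 3 of 27 rose in hMYC-1 and hMYC-2 against hlk (7.41% and 11.1%), and 0 fell. Of the large subunit genes, 1 and 1 of 45 rose, and 0 and 1 (*rplp2*) fell (2.22% and 4.44% in either direction). Over all probe sets 9.13% and 11.0% passed as higher and 9.63% and 13.7% as lower. No p-value is given for these medians, since genes of 1 array are not independent of each other.

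**Figure D5:**
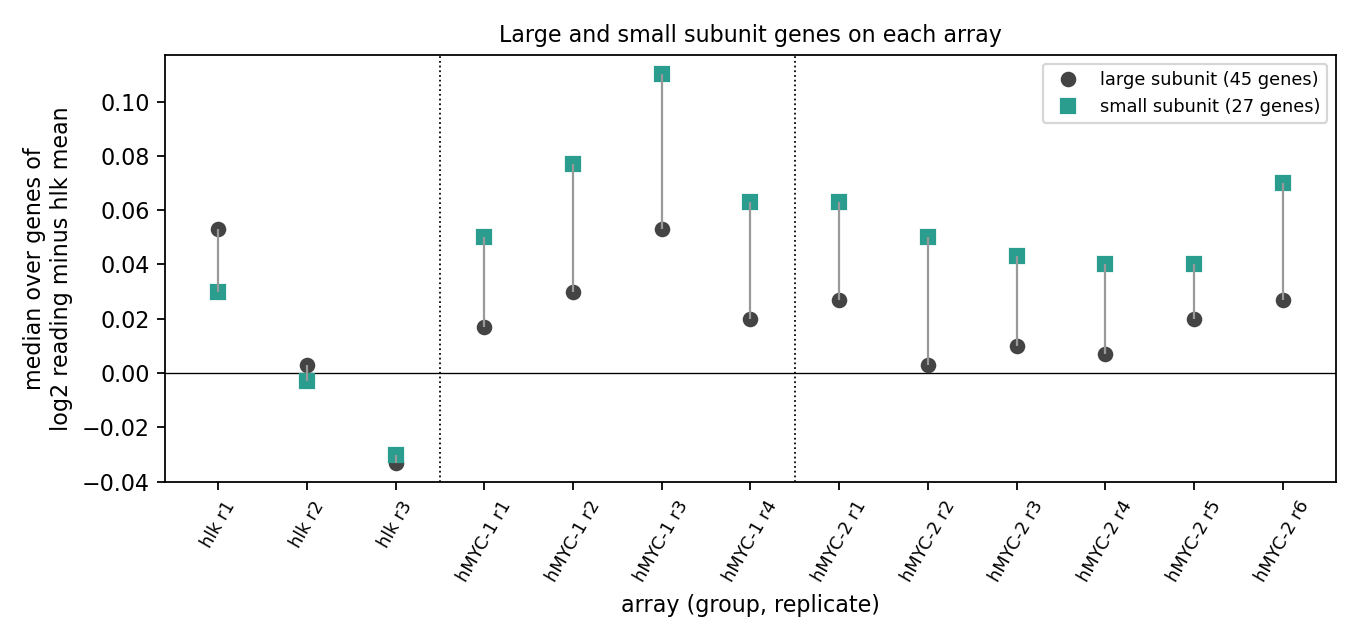
For each of the 13 arrays, the median over the 45 large subunit genes (circles) and over the 27 small subunit genes (squares) of the log2 reading minus the hlk mean of the gene, a centring that holds the hlk symbols near zero. The square lies above the circle on all 10 hMYC arrays, with large minus small between −0.057 and −0.020, and below it or within 0.003 of it on the 3 hlk arrays; shifting whole arrays moves both symbols together and leaves their gap unchanged.

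The members with lower readings had the widest ranges over the 13 fish, above 0.5 log2 units in 5 of 5. In *rpl22l1* and *rps27l* the spread was widest within hlk. *rpl22l1*, whose mouse counterpart is held down by Rpl22, read 13.13, 12.88 and 10.47 in hlk, 12.47, 12.59, 12.87 and 12.73 in hMYC-1, and 12.26 to 12.53 in hMYC-2. hlk replicate 3 stood 2.41 below the next hlk fish and below all 10 hMYC fish, whereas the other 2 hlk fish stood at or above the top of both hMYC groups. With all 3 hlk fish the hMYC-2 difference was 0.24 ± 0.43 (adjusted p = 0.723). Without hlk replicate 3 it turned to −0.61 and passed (adjusted p = 0.00324), and the hMYC-1 difference turned from 0.50 to −0.34 (adjusted p = 0.0873). Thus 1 fish decided the sign.

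*rpl22* itself, which binds Epstein-Barr virus RNA in human cells varied little. It read 13.61, 13.50 and 13.74 in hlk, 13.56, 13.58, 13.64 and 13.56 in hMYC-1, and 13.41 to 13.54 in hMYC-2. The highest of the 13 readings was in hlk replicate 3, the fish with the lowest *rpl22l1*. The differences of −0.03 in hMYC-1 and −0.14 in hMYC-2 did not pass (adjusted p = 0.823 and 0.161). The hMYC-2 arrays lay wholly below hMYC-1, by 0.11 (adjusted p = 0.551). *rpl22l1* minus *rpl22* was −3.27 in hlk replicate 3 and between −1.19 and −0.48 in the other 12 fish.

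*rps27l*, a relative of *rps27* that p53 induces in human cells, had the widest range of all members. It read 7.87, 10.62 and 7.04 in hlk, 8.31, 9.09, 9.13 and 9.42 in hMYC-1, and 8.79 to 10.18 in hMYC-2 (median 9.15). hlk replicate 2 gave the highest reading of the 13 fish and the other 2 hlk fish the lowest. With all 3 hlk fish the differences of 0.48 and 0.76 did not pass (adjusted p = 0.679 and 0.391). Without hlk replicate 2 they were 1.53 (adjusted p = 0.0178) and 1.82 (adjusted p = 0.00412). This fish had an ordinary *rpl22l1* reading of 12.88, so the outlying hlk fish was not the same for both genes.

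The other genes of the *rps27* family behaved otherwise. *rps27.1* read 13.99 to 14.12 in hlk, 14.04 to 14.22 in hMYC-1 and 14.05 to 14.12 in hMYC-2. *rps27.2* read 11.33, 11.94 and 11.61 in hlk, 11.86 to 12.50 in hMYC-1 and 10.64 to 12.15 in hMYC-2, where replicate 1 was lowest. Its SD was largest in hMYC-2 (0.56, beside 0.31 in hlk and 0.30 in hMYC-1). Its differences of 0.43 and 0.02 from hlk, and of −0.41 between the hMYC groups, did not pass (adjusted p = 0.398, 0.974 and 0.596). *rpl7l1*, a relative of *rpl7* named after its values were seen, read 9.48 to 10.16 over the 13 fish with differences of 0.02 and −0.03. *rps19bp1* read 7.56 to 8.11 with differences of 0.16 and −0.01.

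Further members of known clinical or signalling interest did not pass the test on the deposited values. *rps6*, the substrate of S6 kinase, read 13.77, 13.99 and 13.97 in hlk and 14.00 to 14.09 in hMYC-1, a difference of 0.13 (adjusted p = 0.241), and 13.95 to 14.03 in hMYC-2, a difference of 0.08 (0.394). *rps19*, the gene most often mutated in Diamond-Blackfan anaemia, differed by −0.06 and −0.04, and *rpl35a*, another gene of that disease, by −0.02 and −0.02. *rpl10*, a late-joining large subunit protein mutated in some human T-ALL, differed by 0.06 and 0.09, with hMYC-2 (14.12 to 14.19) wholly above hlk (14.04 to 14.09). *rpl5b* differed by 0.14 and 0.15, and under further quantile normalization its hMYC-2 difference was 0.26 and passed (adjusted p = 0.0123; 0.0123 to 0.995 over 25 alternatives). *rps18* differed by 0.08 and 0.02 and *rpl13a* by 0.05 and 0.02. *rpl3*, which reaches toward the peptidyl transferase centre, differed by 0.00 and 0.01, with 95% intervals of −0.15 to 0.16 and −0.14 to 0.15. A second probe set of *rpl3* read 10.94 in hlk replicate 1 and 13.41 to 13.71 on the other 12 arrays, and that array is the 1 with the GAPDH 3′ to 5′ imbalance. A second probe set of *rpl21* read 3.51 to 4.39, within background, against 13.74 to 14.04 for the probe set used.

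Components of the cytosolic ribosome that the naming rule leaves out were set beside the members. *rpsa* and *faua*, both small subunit proteins, differed from hlk by 0.22 and 0.17 in hMYC-1 (adjusted p = 0.104 and 0.0934) and by 0.23 and 0.16 in hMYC-2 (0.0644 and 0.0775). *rack1*, a scaffold on the small subunit, differed by 0.08 and 0.12. *faub* read far lower, at 8.40 ± 0.70 (SD, 3 fish) for hlk, 7.74 ± 0.17 (4 fish) for hMYC-1 and 7.66 ± 0.16 (6 fish) for hMYC-2. Its difference was −0.65 in hMYC-1 (adjusted p = 0.0854) and −0.74 in hMYC-2, where it passed (adjusted p = 0.0294). *faua* and *faub* were added after the files were seen.

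Genes that make or serve the ribosome without being part of it were set beside the members. Of 70 measured ribosome biogenesis genes (of 87 listed), which encode nucleolar processing and assembly factors, 40 rose and 1 fell in hMYC-1 against hlk, 58.6% beside 18.8% of all probe sets, with a median difference of 0.53. In hMYC-2 against hlk 38 rose and 1 fell, 55.7% beside 24.7%, with a median of 0.45. Without hlk replicate 1, 38 rose and 1 fell in each comparison. Under the shift to *actb1* and *eef1a1l1* 24 and 19 passed as higher, with medians of 0.46 and 0.31. Of 59 mitochondrial ribosomal protein genes, 12 rose and 2 fell, and 11 rose and 3 fell, 23.7% in each comparison, with a median of 0.16 in each. Under the 2-gene shift 8 passed as higher and 2 as lower in hMYC-1 (median 0.10), and 5 and 5 in hMYC-2 (median 0.02). Without hlk replicate 1 the medians were 0.24 and 0.23. Of 52 translation factor genes, 8 rose and 4 fell, and 9 rose and 3 fell, 23.1% in each comparison, with medians of 0.07 and −0.01. Under the 2-gene shift the balance turned, to 2 higher and 3 lower in hMYC-1 (median 0.00) and 3 and 6 in hMYC-2 (median −0.15). Without hlk replicate 1 both medians were 0.02. Most genes of these lists read between 6 and 12, where differences were wider across the array, and no test set them against the ribosomal protein genes.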

How the data were processed

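The authors hybridised biotinylated cRNA, made from 100 ng of Trizol-extracted RNA with a 3′ expression kit, to Affymetrix zebrafish arrays and deposited log2 expression values normalised over all arrays with justRMA. Array number, not read depth, limits precision. The values were used as deposited, without 115 control probe sets, leaving 15502. Probe sets were named by the platform annotation (10795 with 1 symbol), and all 73 members matched RefSeq by gene ID with 0 changed symbols. A gene with several probe sets (4 members) was represented by that with the highest mean over 13 arrays. Near-identical copies may share probes. No genome was used, so positions and sequences are not given.

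Groups came from the sample titles. One limma fit (limma 3.58.1, R 4.3.3, statmod 1.5.0) of 3 group means over 13 arrays gave the 3 comparisons, with moderated statistics from eBayes and Benjamini-Hochberg adjustment over 15502 probe sets at 0.05; the code was tested on simulated data. The authors' own tests were a shrinkage t with a local false discovery rate, which was run as an alternative. Paralog pairs were compared by exact two-sided permutation of the difference within a fish. The same permutation test was run on the reading of each probe set by itself. Other alternatives were another prior, array weights, 2 groups alone, probe sets above background, further quantile normalisation, shifts to housekeeping genes, a replicate block, a 2-fold minimum, the mean of probe sets, another membership and leaving out each array.

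Replicate numbers in the titles are not explained by the labels. Same-numbered arrays deviated together in hMYC-2 against hlk (correlations 0.32, 0.23 and 0.24), which by the rule used (every pair over 0.1) pairs them, but not in hMYC-1 against hlk (−0.15, 0.10, −0.13) or hMYC-2 against hMYC-1 (−0.32, 0.17, −0.16, −0.05). Arrays with unlike numbers were not compared, so whether like numbers agree more closely than unlike ones was not tested.

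Members, lists and tests were chosen with earlier results of these data known. Named genes were those past the threshold without overlap between groups, the 3 smallest differences in each comparison with hlk, and a fixed set of members. *rps26*, *rplp2b*, *rpl7l1*, *rpl7*, *rpl21*, *rps19bp1*, *rpl27a*, *rpl18* and *rpl36* were named after their values were seen, as were the limits of 13, 0.25 and 0.5 and the pairs tested.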

Additional observations from a re-analysis of the deposited data

Results flagged for a closer look

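In 66 groups of 4 or 6 arrays of named genes, 7 held 1 array that stood apart from the others of its group by Dixon's criterion, which chance alone meets in about 1 group in 20. That rate is for unrounded values. These readings are rounded to 2 decimals and tie within some groups, so 7 of 66 is not read as an excess. All 7 were bright members, and 6 of the 7 readings were within 0.1 log2 units of the nearest array. In hMYC-1, replicate 3 stood apart in *rpl13a* (13.98, the others 13.90 to 13.91) and *rplp2b* (14.06, the others 14.08), replicate 1 in *rpl35a* (13.89, the others 14.01 to 14.03) and replicate 2 in *rps27a* (14.14, the others 14.16). In hMYC-2, replicate 1 stood apart in *rpl7* (13.73, the others 13.77 to 13.78) and *rps27.1* (14.12, the others 14.05 to 14.07), and replicate 6 in *rps14* (14.23, the others 14.19 to 14.20). The hlk group, with 3 arrays, was not examined in this way. Leaving out the array concerned changed no call on these 7 genes.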

How the results depend on the processing

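In hMYC-1 against hlk, where limma gave 3 higher and 0 lower, the number of members higher was 0 with the shrinkage t, with 2 groups alone, with the replicate block, with a 2-fold minimum and with the shift to *actb1* and *eef1a1l1* (added after seeing the data), 8 with a trended robust prior and 5 with the mean of probe sets, which also gave 1 lower. Over all that was tested, the shares higher in these settings were, in the same order, 4.4%, 6.53%, 6.93%, 4.33%, 6.19%, 8.77% and 9.67%. The share lower with the mean of probe sets was 10.1%. In hMYC-2 against hlk (4 higher, 1 lower) the counts were 0 higher and 0 lower with the shrinkage t, the replicate block and a 2-fold minimum. The shares of all probe sets higher and lower were 3.57% and 2.63%, 7.54% and 7.91%, and 5.14% and 3.54%. Members numbered 2 and 0 with array weights (background 8.69% and 9.92%) and 7 and 0 with further quantile normalisation (11.2% and 13.8%). With the 3-gene housekeeping shift they numbered 1 and 0 (11.5% and 5.86%). The 2-gene shift gave 0 higher (7.15%), and the mean of probe sets gave 2 lower (14.5%). A core set of 72 genes gave 3 higher and 2 lower (*faub* and *rplp2*). It took in *faub* and left out *rps26l*, which had the largest difference among the members that passed. These 2 changes alone do not give 72 genes, so the core set differed in other genes too, which are not listed here. Leaving out 1 array gave 2 to 5 higher in hMYC-1 (5 without hlk replicate 1 or hlk replicate 2), and 3 to 6 higher and 0 to 2 lower in hMYC-2 (0 lower without hlk replicate 1, 2 without hlk replicate 3). Over all probe sets the share higher ran from 7.6% to 9.62% in hMYC-1. In hMYC-2 the share higher ran from 9.53% to 11.3% and the share lower from 11.7% to 13.5%. Member medians were 0.253 and −0.023 in hMYC-1, 0.151 and −0.127 in hMYC-2 and −0.106 and −0.107 in hMYC-2 against hMYC-1 under the 3-gene and 2-gene shifts, and −0.006 in the last under quantile normalisation; leaving out 1 array gave 0.023 to 0.058, 0.010 to 0.037 and −0.033 to −0.017. Large minus small was −0.049 under quantile normalisation in hMYC-1, and without 1 array −0.070 to −0.040, −0.055 to −0.025 and −0.002 to 0.011. The *rpl22l1* difference in hMYC-2 ran from −0.61 to 0.72 over leaving out 1 array, −0.61 without hlk replicate 3. Apart from the fewer arrays in the last kind of setting, the cause was not tested. The replicate block changed no other call. In hMYC-2 against hMYC-1, 0 members passed under every alternative. Arrays of 3 hlk fish, and readings close to the top of the scale, limit what can be seen.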

Other observations

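The probe set names hold a cluster number, and 10 members share theirs with a member of another name, in 5 pairs: *rpl9* and *rps12*, *rps6* and *rps7*, *rpl13* and *rps29*, *rpl26* and *rps10*, *rpl39* and *rps4x*. All 10 had a single probe set with 1 symbol, and whether probes of a pair read each other's RNA was not tested. Of the genes that read above 13, *rpl29* had the widest range over the 13 arrays after *rplp2* and *rps26l*, at 13.01 to 13.43. *rpl29* was chosen after its values were seen.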
